A study of Homo sapiens with 10 samples.

Results

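The genes described here are 31 targets of the tumour suppressor p53, sorted by function, in MRC5 cells, a line of human fetal lung fibroblasts. The rule lists them by name and uses no measured value, although the list was drawn up with earlier results of these data known: 8 genes of apoptosis, 5 of DNA repair, 3 that feed back on p53, and 15 remaining targets. Of the 31, 30 were found among the 14054 genes of the count table, and all 30 passed the filter on low counts. AEN, which encodes a nuclease induced by p53 in apoptosis, was not analysed here. The study gave MRC5 cells medium taken from A549 cells, a lung adenocarcinoma line, in order to ask whether stretched epithelium acts on fibroblasts through secreted factors. A total of 5 libraries came from cells given medium of stretched A549 cells (stretch medium) and 5 from cells given medium of non-stretched A549 cells (static medium). No group without conditioned medium was analysed here, so what both media share is not measured. The labels give the exposure as 24 hours in the sample descriptions and as 6 hours in the series design, and they name no separate cultures behind the libraries. The p-values therefore measure the spread between these libraries, which may be technical. Libraries are called by the number in their title, which ran over both groups, so stretch libraries have even and static libraries odd numbers.

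The protein p53 is a transcription factor that is kept scarce by the ubiquitin ligase MDM2 and accumulates after DNA damage, ribosomal stress or oncogene activity. It binds DNA as a tetramer, and its targets arrest the cell cycle, repair DNA, change metabolism or lead to cell death, while MDM2 and the phosphatase PPM1D are themselves targets that shut the response off. In fibroblasts, lasting p53 activity is known as part of replicative and damage-induced senescence, with the cell-cycle inhibitor CDKN1A as a main effector.

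Library totals averaged 5948227 ± 1544115 counts with stretch medium and 6675921 ± 1494760 counts with static medium (SD, n = 5 each), and their ranges overlapped (two-sided p = 0.444 by exact permutation). A total of 3 counts, the limit taken for a gene at 0, corresponded to between 0.354 and 0.679 CPM (CPM are counts scaled to a common library size, here by TMM). Fibroblast markers, 12 of 12 in the table, summed to 14610 to 19132 CPM with stretch medium and 16494 to 18446 CPM with static medium. Of 12 markers of epithelium and A549 cells, 8 were in the table. They summed to 38.7 to 52.6 CPM with stretch medium and 36.1 to 45.7 CPM with static medium. The epithelial cadherin CDH1 was the lowest of the 8, at most 0.522 CPM in any library. In every library KRT18 was at 7.31 CPM or more, KRT19 at 9.84 CPM or more and CLDN4 at 4.22 CPM or more. Transcripts of these markers were thus detected in both groups, above the limit for a gene at 0. Stretch 2 had the fewest counts and stood apart in the fibroblast marker VIM, at 1580 CPM against 4091 CPM or more in the other stretch libraries. The other fibroblast markers did not share 1 direction there. Stretch 2 was the highest of all libraries in COL1A1, PDGFRB and LUM, and the lowest in THY1, DCN and S100A4. In such bulk samples, fewer cells of a type and less RNA per cell cannot be told apart.

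With stretch medium, estimates for the 15 remaining members lay mostly below 0, and those of the members of apoptosis, repair and feedback lay on both sides of 0. In edgeR's quasi-likelihood test, 0 of the 30 members passed an adjusted p of 0.05, as did 0 of all 10968 genes tested (background 0%). At an unadjusted p under 0.05, 6 members were lower with stretch medium and 0 higher. This is 20% of the members, against a background of 8.37% of all genes lower at that p and 8.08% higher (16.4% in either direction). All 6 were among the 15 remaining members: TP53I3, TIGAR, SESN1, PLK3, GDF15 and TP53I11. DESeq2 called 2 members, TP53I3 and TIGAR, both lower, against a background of 2.51% of genes in either direction and 1.37% lower. The method limma-voom called 0 members and 1 gene in all.

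By log2 fold change of stretch minus static medium, 22 of the 30 members were below 0, with a median of -0.11, beside 49.9% of all genes and a median of 0.00035. Of the 15 remaining members, 14 were below 0, with a median of -0.30 and a range from -0.62 to 0.039. Of the other 15 members, 8 were below 0, with a range from -0.31 to 0.25. The medians were -0.038 for 7 apoptosis members, 0.067 for 5 DNA repair members and -0.032 for the 3 feedback members. Each of these 3 medians changed sign with a library left out, over ranges of -0.095 to 0.0092 for apoptosis, -0.011 to 0.13 for DNA repair and -0.080 to 0.064 for feedback. No test was made of the difference between these classes. Leaving out stretch 10 gave a median of -0.19 over all members, and leaving out static 3 gave 18 members below 0.

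**Figure D1:**
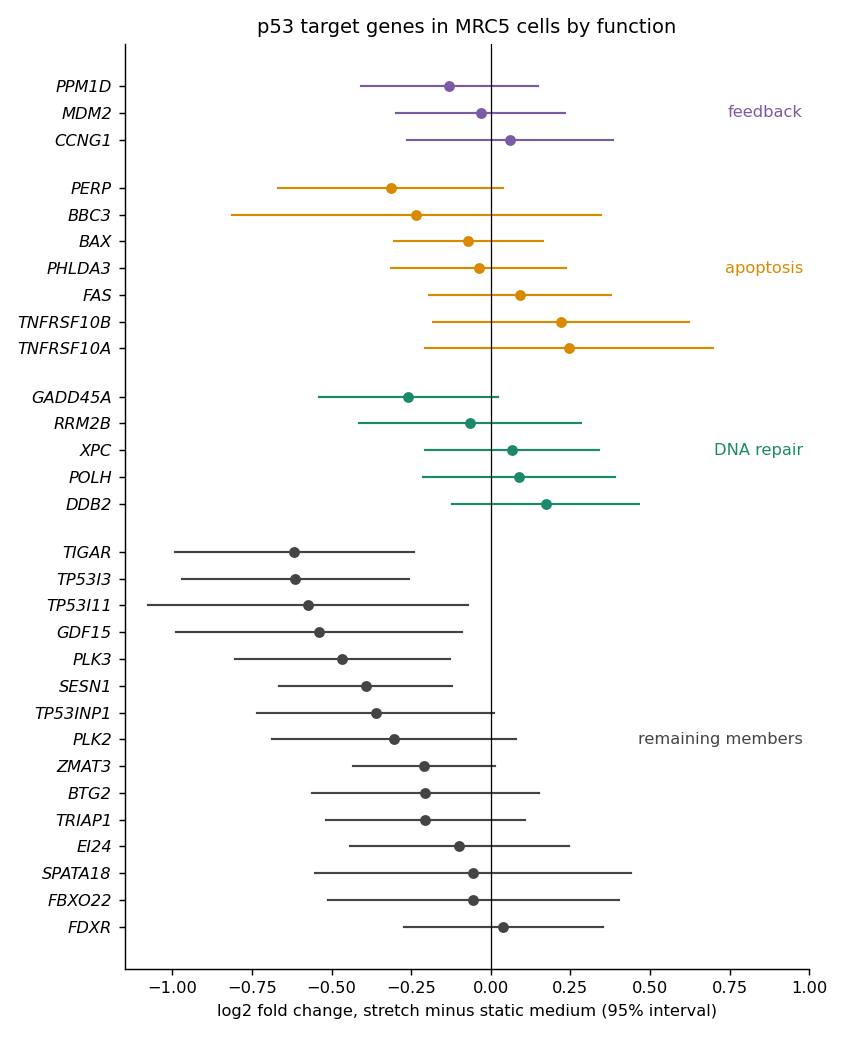
Log2 fold change of stretch minus static medium (horizontal axis) for the 30 members, with points for the edgeR estimate and lines for its 95% interval, grouped by function. The intervals of 6 genes, all among the remaining members, lie below 0, from TIGAR at -0.62 to SESN1 at -0.39.

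Promoter sequence is shown to give the p53 sites that stand close to the starts of measured members. RefSeq promoter windows (GRCh38.p14, 250 bases before to 50 bases after a start) were at hand for 24 of the 31 members. They were searched for the p53 half-site consensus of 10 letters, which has a core of 4 letters (C, then A or T, then A or T, then G) with 3 purines before it and 3 pyrimidines after it, and which reads the same way on both strands. Of the 24 members, 7 (29.2%) held an exact half-site in at least 1 window, against 8.06% of all 27305 genes with a window. Counted by window, the shares were 18.9% of 37 for the members and 6.63% of 35116 for all. A pair of half-sites with at most 2 mismatches in all and a gap of at most 13 bases stood in windows of 3 members, FAS, DDB2 and AEN, or 12.5% of the 24, against 1.81% of all genes. The windows of TP53I3, TIGAR, GDF15, PLK3 and TP53I11 held no exact half-site, and p53 sites in introns or farther away were not searched. Such a match is a run of letters, not a measured binding event. The members were listed as p53 targets, so these shares describe the list and not the difference between the media. The sites of the 6 measured members are given 5′ to 3′ on the gene's strand, each with flanking bases up to 30 in all and the half-sites in capitals.
DDB2: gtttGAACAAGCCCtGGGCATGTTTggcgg
FAS: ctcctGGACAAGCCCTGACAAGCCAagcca
SESN1: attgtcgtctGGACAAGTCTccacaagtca
PLK2: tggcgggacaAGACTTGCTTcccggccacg
FDXR: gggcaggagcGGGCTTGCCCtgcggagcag
EI24: cgtgcggcccGGGCATGCCCagtgcgggcg

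Positions and annotations are given for the 30 printed bases and not for the half-sites alone. The DDB2 stretch is at chr11:47214975-47215004 on the plus strand and overlaps an annotated UTR. It is the only one of the 6 with a pair of exact half-sites, which are 1 base apart. The FAS stretch, at chr10:88991304-88991333 on the plus strand, has a pair without a gap and with 2 mismatches. It overlaps an annotated exon and no annotated UTR of the gene, and whether that exon is coding was not examined. The SESN1 site, at chr6:109009018-109009047 on the minus strand, is intronic relative to the longest gene bounds and upstream of an inner start. Those of PLK2 at chr5:58460199-58460228 and FDXR at chr17:74872986-74873015, both on the minus strand, and of EI24 at chr11:125569457-125569486 on the plus strand overlap an annotated UTR. These 6 genes had log2 fold changes of 0.17 for DDB2, 0.091 for FAS, 0.039 for FDXR, -0.099 for EI24, -0.30 for PLK2 and -0.39 for SESN1. Genes with a half-site near the start thus lay on both sides of 0.

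Of the remaining members, the 6 at an unadjusted p under 0.05 are given first. TP53I3 encodes a quinone oxidoreductase-like enzyme that p53 induces, and lies on chromosome 2 from 24077433 to 24085861 in GENCODE release 29 on GRCh38. It was at 38.0, 44.6, 36.0, 42.8 and 34.4 CPM in stretch 2, 4, 6, 8 and 10, against 53.2, 45.5, 50.9, 91.5 and 58.4 CPM in static 1, 3, 5, 7 and 9. The groups did not overlap, by 44.6 CPM in stretch 4 against 45.5 CPM in static 3, and static 7 was far above the rest. TP53I3 was the only 1 of the 30 members without overlap (background 3.72% of genes in either direction and 1.98% lower). Its log2 fold change was -0.61 ± 0.17 (SE, adjusted p = 0.128 in edgeR, 0.0330 in DESeq2). Without static 7 it was -0.41.

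TIGAR, a sugar bisphosphatase that slows glycolysis and favours the pentose phosphate route (chromosome 12, 4307763 to 4354593), was at 14.5, 27.9, 19.8, 23.3 and 21.9 CPM in stretch 2 to 10. In static 1 to 9 it was at 28.8, 26.2, 31.7, 44.5 and 33.8 CPM. The groups overlapped only through stretch 4, which lay above static 3. The log2 fold change was -0.62 ± 0.18 (adjusted p = 0.129 in edgeR, 0.0382 in DESeq2), and with a library left out the smallest adjusted p in edgeR was 0.0692. SESN1, a sestrin that restrains mTOR signalling (chromosome 6, 108986437 to 109094819), was at 37.8, 47.9, 43.2, 37.5 and 43.8 CPM in the stretch libraries. In the static libraries it was at 57.8, 51.2, 42.7, 61.5 and 62.8 CPM. Only static 5 lay within the stretch range. Its log2 fold change was -0.39 ± 0.13 (edgeR, adjusted p = 0.160).

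PLK3 and PLK2 encode polo-like kinases that respond to stress. PLK3 (chromosome 1, 44800225 to 44805990) was at 13.6, 14.2, 14.9, 11.4 and 12.3 CPM in stretch 2 to 10, against 16.7, 21.1, 18.0, 22.1 and 13.3 CPM in static 1 to 9. Only static 9 lay within the stretch range, and the log2 fold change was -0.47 ± 0.16 (edgeR, adjusted p = 0.169). PLK2 averaged 250.4 ± 74.1 CPM with stretch medium and 309 ± 51.9 CPM with static medium (SD, n = 5 each). Its lowest library was stretch 2, at 138 CPM against 235 CPM or more in the other 9 libraries. The log2 fold change of PLK2 was -0.30 over 10 libraries and -0.15 without stretch 2, and its interval over 10 libraries ran from -0.69 to 0.080.

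GDF15 encodes a secreted cytokine of the TGF-beta superfamily that cells release under stress (chromosome 19, 18374731 to 18389176). It was at 72.0, 67.9, 77.0, 66.2 and 55.1 CPM in stretch 2 to 10. In static 1, 3, 5, 7 and 9 it was at 136, 139, 90.6, 51.7 and 75.0 CPM, so static 7 lay below every stretch library and static 9 within their range. The log2 fold change was -0.54 ± 0.21 (edgeR, adjusted p = 0.231), or -0.38 without static 3 and -0.70 without static 7. GDF15 is also known as a target of the amino acid stress response, whose marker ASNS, picked after its values were seen, was at 8.15 to 14.5 CPM in the stretch libraries. ASNS was at 34.5, 58.1, 12.8, 42.7 and 13.8 CPM in static 1, 3, 5, 7 and 9. Static 1 and 3, the highest in GDF15, lay above all stretch libraries in ASNS. Static 7 was high in ASNS and low in GDF15, and static 5 and 9 lay within the stretch range in ASNS. The part of that response in the GDF15 difference was not tested. TP53I11, a p53-induced gene of poorly known function (chromosome 11, 44885903 to 44951306), had only 15 to 40 counts a library. It was at 4.75, 3.85, 2.06, 3.10 and 3.62 CPM in stretch 2 to 10, against 5.71, 4.72, 4.92, 4.18 and 6.01 CPM in static 1 to 9. Its groups overlapped through stretch 2, and the log2 fold change was -0.57 ± 0.24 (edgeR, adjusted p = 0.250).

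**Figure D2:**
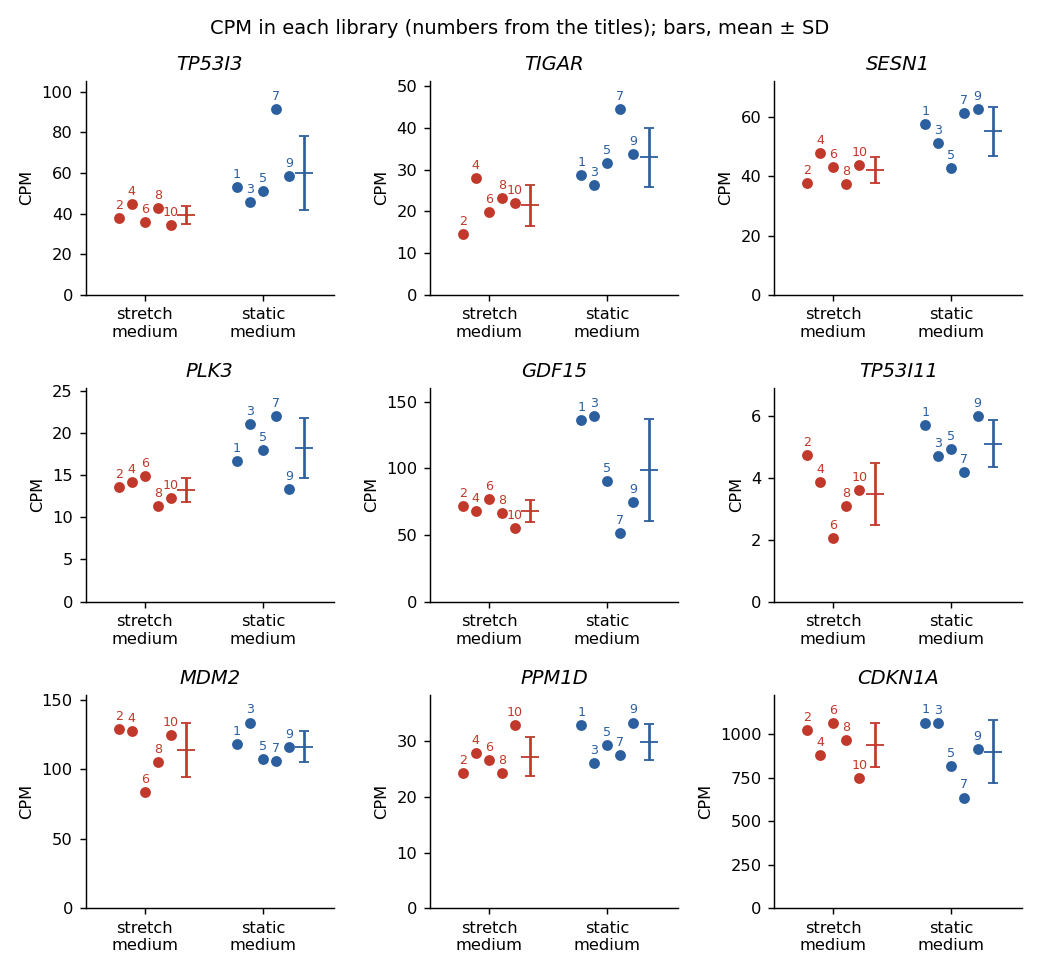
CPM (vertical axis, from 0) in each of 5 stretch (left) and 5 static (right) libraries for the 6 members at an unadjusted p under 0.05, for MDM2 and PPM1D, and for the non-member CDKN1A. Points carry the library's number and bars show the mean ± SD. Static 7 is highest for TP53I3 and TIGAR and lowest for GDF15 and CDKN1A.

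The other 9 remaining members had unadjusted p above 0.05 in edgeR, and the intervals of all 9 spanned 0. TP53INP1, which links p53 to autophagy, averaged 12.1 ± 1.54 CPM with stretch medium and 15.6 ± 3.58 CPM with static medium (SD, n = 5 each), with a log2 fold change of -0.36 (-0.73 to 0.0096). ZMAT3, an RNA-binding regulator of splicing, averaged 91.3 ± 6.55 CPM with stretch medium and 106 ± 11.8 CPM with static medium, or -0.21 (-0.43 to 0.014). The antiproliferative gene BTG2 was at -0.21 and TRIAP1, an inhibitor of apoptosis, at -0.21. Leaving out static 3 brought BTG2 to -0.078. EI24, a membrane protein of the endoplasmic reticulum, and FBXO22, a substrate receptor of a ubiquitin ligase, were at -0.099 and -0.054. SPATA18, which acts in mitochondrial quality control, was at -0.056 with 12 to 45 counts a library. The mitochondrial ferredoxin reductase gene FDXR, at 0.039, was the only remaining member above 0.

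The feedback genes stood close to 0. MDM2 (chromosome 12, 68808176 to 68850686) was at 129, 127, 83.5, 105 and 124 CPM in stretch 2 to 10, against 118, 133, 107, 106 and 116 CPM in static 1 to 9. The groups overlapped throughout, with stretch 6 the lowest of the 10, and the log2 fold change was -0.032 (95% interval -0.30 to 0.23). PPM1D, the phosphatase that removes activating phosphates from p53 (chromosome 17, 60600183 to 60666280), was at 24.2, 27.9, 26.6, 24.3 and 32.8 CPM in stretch 2 to 10. In the static libraries it was at 32.7, 26.1, 29.2, 27.4 and 33.3 CPM, and the log2 fold change was -0.13 (-0.41 to 0.15). CCNG1, a cyclin that brings a phosphatase to MDM2 (chromosome 5, 163437569 to 163446151), was at 185, 183, 125, 174 and 181 CPM in stretch 2 to 10. In the static libraries it was at 178, 194, 194, 115 and 133 CPM. Stretch 6 and static 7 and 9 were low within groups that otherwise overlapped, and the log2 fold change was 0.061 (-0.26 to 0.38).

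The apoptosis members lay on both sides of 0, and 0 of the 7 passed an unadjusted p of 0.05 in edgeR. The death receptors were the 3 members of the class above 0: TNFRSF10A at 0.25 (-0.21 to 0.70), TNFRSF10B at 0.22 (-0.18 to 0.62) and FAS at 0.091 (-0.20 to 0.38). TNFRSF10B, a receptor for the ligand TRAIL (chromosome 8, 23020133 to 23069179), was at 324, 369, 324, 368 and 560.2 CPM in stretch 2 to 10. In the static libraries it was at 380, 487, 304, 276 and 222 CPM, so the groups overlapped, and stretch 10 was the highest of the 10. Its log2 fold change was 0.053 without stretch 10, 0.11 without static 9 and 0.40 without static 3. The other TRAIL receptor, TNFRSF10A, was at 9.36 to 10.6 CPM in the stretch libraries. In static 1 and 3 it was at 10.3 and 12.6 CPM, and in static 5, 7 and 9 at 5.69, 6.53 and 6.49 CPM. Its log2 fold change was 0.46 without static 3 and 0.14 without static 5. FAS shares bounds with the abundant smooth muscle actin gene ACTA2 on the opposite strand, and the use of strand in counting is not known here, so their reads may not be separable. MDM2, TNFRSF10B, XPC, POLH, TRIAP1, FBXO22 and EI24 likewise overlap an opposite-strand gene of the table.

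Of the intracellular and membrane members of the apoptosis class, 4 lay below 0. PERP, a membrane protein of cell junctions that also acts in apoptosis (chromosome 6, 138088505 to 138107511), was at 19.2, 22.5, 19.3, 18.7 and 17.9 CPM in stretch 2 to 10. In static 1, 3, 5, 7 and 9 it was at 29.2, 24.2, 29.1, 15.3 and 24.2 CPM, so that 4 of the 5 static libraries lay above and static 7 below all stretch libraries. Its log2 fold change was -0.31 (-0.67 to 0.039). BBC3, which encodes the BH3-only protein PUMA, had 12 to 34 counts a library and an estimate of -0.23 (-0.81 to 0.35). BAX, which opens the outer mitochondrial membrane, was at -0.070 (-0.31 to 0.16) and the AKT inhibitor PHLDA3 at -0.038 (-0.31 to 0.24).

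Of the DNA repair members, 3 were above 0 and 2 below, with 0 at an unadjusted p under 0.05 in edgeR. GADD45A, a stress sensor that binds PCNA (chromosome 1, 67685061 to 67688338), was at 45.5, 48.7, 36.3, 44.5 and 34.2 CPM in stretch 2 to 10. In the static libraries it was at 52.1, 54.0, 45.0, 57.4 and 41.2 CPM, of which 3 lay above all stretch libraries. Its log2 fold change was -0.26 (-0.54 to 0.022). DDB2, which finds ultraviolet damage in chromatin (chromosome 11, 47214465 to 47239240), was at 28.5, 24.2, 27.0, 27.3 and 21.1 CPM in stretch 2 to 10, against 24.0, 27.6, 20.4, 19.8 and 21.9 CPM in static 1 to 9. The groups overlapped, and the log2 fold change was 0.17 (-0.12 to 0.46). The damage sensor XPC was at 0.067 (-0.21 to 0.34) and the translesion polymerase gene POLH at 0.088 (-0.21 to 0.39). RRM2B, a ribonucleotide reductase subunit that p53 induces, was at -0.065 (-0.41 to 0.28).

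**Figure D3:**
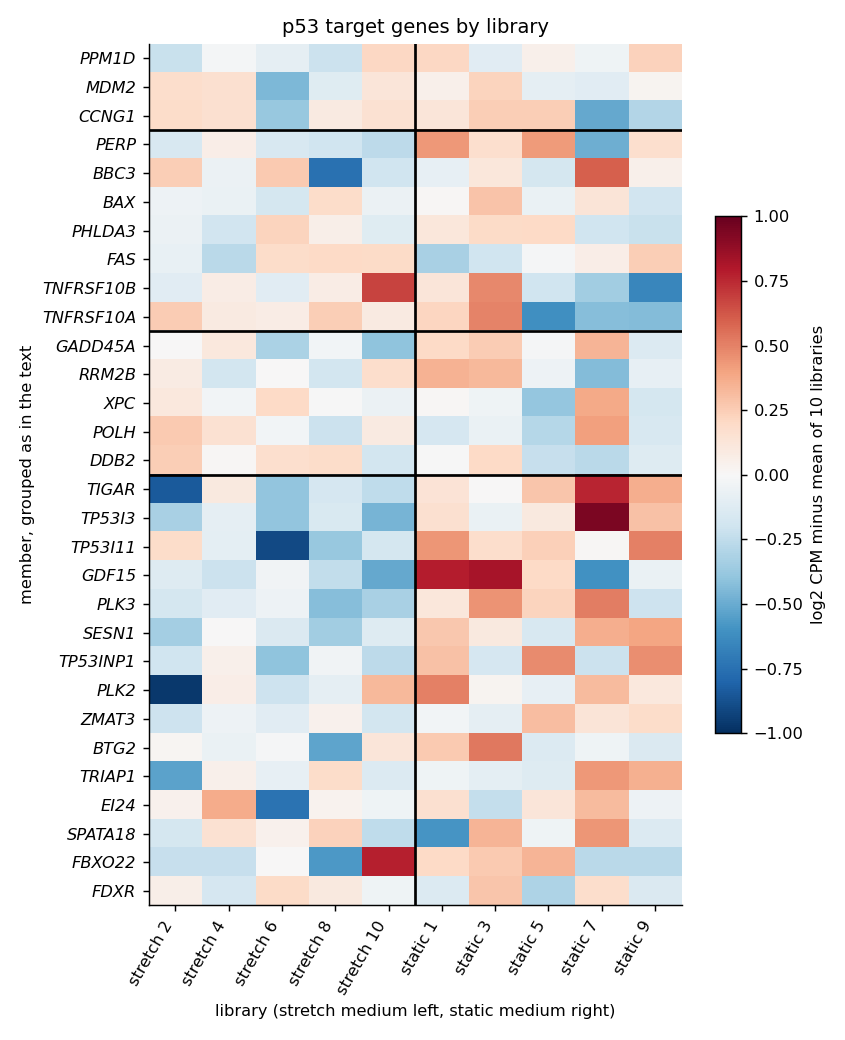
Log2 CPM of each member minus its mean over 10 libraries (colour, from -1 to 1), with stretch libraries on the left and static libraries on the right, and with lines between the feedback, apoptosis, DNA repair and remaining members (top to bottom). Rows within each class are ordered from the lowest to the highest log2 fold change. By this order, blue on the left and red on the right prevail in the upper rows of the remaining members. Static 7 is the reddest cell of the TIGAR and TP53I3 rows.

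The spread of the members was compared between the groups as a description. The SD of log2 CPM was larger in the static group for 20 of 30 members (66.7%), beside 51.4% of all genes. Its median over members was 0.18 in stretch and 0.28 in static libraries, and over all genes 0.23 in stretch and 0.24 in static libraries. GDF15 had an SD of 0.18 in stretch and 0.60 in static libraries, and TNFRSF10A one of 0.093 in stretch and 0.48 in static libraries. Static 7 was the highest of the 10 libraries for 9 members, TP53I3, TIGAR and PLK3 among them, and the lowest for 5, GDF15, CCNG1 and PERP among them. Stretch 2 was the lowest for 5 members, TIGAR, PLK2 and TRIAP1 among them. Averaged over the 15 remaining members, centred log2 CPM ran from -0.25 to -0.016 in the stretch libraries and from 0.094 to 0.22 in the static libraries. Averaged over the other 15, they ran from -0.045 to 0.058 in the stretch libraries and from -0.12 to 0.17 in the static libraries. Among the static libraries, static 3 was the highest and static 9 the lowest. These averages restate the fold changes of each class, and none was made for sets drawn from all genes.

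CDKN1A, the p53 target that blocks cyclin-dependent kinases, is no member and is given beside them. CDKN1A (chromosome 6, 36676460 to 36687339) was at 1024, 881, 1061, 964 and 749 CPM in stretch 2 to 10, against 1066, 1063, 817, 636 and 915 CPM in static 1 to 9. The groups overlapped throughout, and its estimate of 0.058 became -0.044 without static 7.

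Genes that act on p53 and p53 targets outside the members lay more often above than below 0. Of 29 listed regulators of p53, 26 were tested: 16 were above and 10 below 0, with a median of 0.063. In edgeR 3 (11.5%) were higher and 1 (3.85%) lower at an unadjusted p under 0.05, beside 8.08% of all genes higher and 8.37% lower, and 0 passed the adjusted threshold. The 4 with the smallest p were the p53 acetyltransferases KAT5 and EP300, the ribosomal protein gene RPL5, whose product binds MDM2, and the p53 inhibitor PPP1R13L. KAT5 averaged 43.4 ± 2.05 CPM with stretch medium and 31.4 ± 0.901 CPM with static medium (SD, n = 5 each), or 0.47 ± 0.11 (edgeR, adjusted p = 0.0903). It was the only 1 of the 26 without overlap (background 3.72% of genes in either direction). EP300 averaged 51.0 ± 10.7 CPM with stretch medium and 33.8 ± 6.30 CPM with static medium, or 0.59 ± 0.16. RPL5 was at -0.51 ± 0.13 and PPP1R13L at 0.69 ± 0.26. PPP1R13L averaged only 4.48 CPM with stretch medium and 2.80 CPM with static medium, and DESeq2 gave it no adjusted p. DESeq2 called KAT5, EP300 and RPL5, against the background of 2.51% of genes in either direction.

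Of 77 further p53 targets, 65 were tested: 40 were above and 25 below 0, with a median of 0.062. Their centred log2 CPM averaged -0.035 to 0.071 in the stretch libraries and -0.13 to 0.037 in the static libraries, so these averages overlapped. In edgeR 13 (20%) were higher and 5 (7.69%) lower at an unadjusted p under 0.05, against the 8.08% and 8.37% of all genes given above, and 0 passed the adjusted threshold. The 4 with the smallest p were ISCU, a scaffold of iron-sulphur cluster assembly, the DNA helicase gene ASCC3, the ferrireductase gene STEAP3 and GTSE1, whose product restrains p53 in the cell cycle. ISCU averaged 97.0 ± 8.58 CPM with stretch medium and 124 ± 5.71 CPM with static medium, without overlap, or -0.35 ± 0.097 (edgeR, adjusted p = 0.128). ASCC3 averaged 227 ± 32.5 CPM with stretch medium and 176 ± 5.34 CPM with static medium, without overlap, or 0.37 ± 0.11 (edgeR, adjusted p = 0.136). STEAP3 was at 0.39 ± 0.12 and GTSE1 at 0.44 ± 0.14. DESeq2 called ISCU (adjusted p = 0.0265), ASCC3 (adjusted p = 0.0388) and STEAP3 (adjusted p = 0.0496). These are 3 of the 65, against the background of 2.51% of all genes in either direction. Of the 65, 1 (ISCU) was lower without overlap and 3 (ASCC3, MICALL1 and TRIM22) were higher, against 3.72% of all genes in either direction. PMAIP1, the BH3-only gene that is the nearest in function to BBC3, was picked after its values were seen. It was at -0.37 (-0.62 to -0.11), with an adjusted p of 0.164 in edgeR and 0.0884 in DESeq2. BID, another BH3-only gene of the list, was at -0.070 (-0.45 to 0.31).

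**Figure D4:**
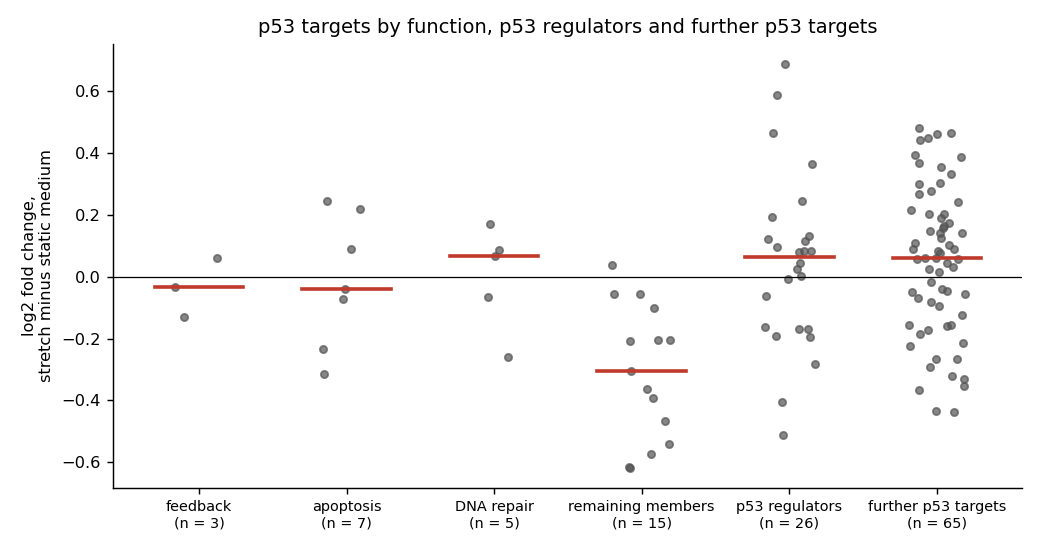
Log2 fold change of stretch minus static medium (vertical axis) for each tested gene (points) of the 4 classes of members, of the p53 regulators and of the further p53 targets, with red lines at the medians. The median is -0.30 for the 15 remaining members and lies between -0.038 and 0.067 in the other 5 sets.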

How the data were processed

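Libraries were made from total RNA with an Ion AmpliSeq transcriptome kit, which amplifies short targets, per the labels' protocols. Per the submitters' processing notes, fastp 0.20.1, Salmon 1.9 and the build hg38/GRCh38 were used. For annotation, strand use and rounding, nothing is stated in the sources used. The authors deposited whole-number counts per Ensembl gene. Symbols matched 13831 of 14054 identifiers. Reads carry no stated molecular identifiers, so count limits cover counting error only. Library pairs within groups had a chi-square of 6.05 to 24.5 for each degree of freedom, more than counting error gives.

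In R 4.3.3, edgeR 4.0.16 kept 10968 genes (filterByExpr, minimum count 10, minimum total 15), scaled by TMM, and tested stretch minus static medium by quasi-likelihood with Benjamini-Hochberg adjustment over all genes at 0.05. DESeq2 1.42.0 and limma-voom 3.58.1 were run beside it. Intervals are 95%; log2 CPM uses a prior count of 2. The code was tested on simulated data. Other scalings, filters, a title-number covariate and leaving out each library were tried.

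Members and lists were chosen with earlier results of these data known. Values by library are given for members with an unadjusted p under 0.05, the 2 smallest p in each class, MDM2 and PPM1D, and fixed lists give their 4 smallest p. A listed gene is not reported here. Gene positions are from GENCODE release 29. Reads of EI24, CCNG1, POLH and TRIAP1 may be shared with processed pseudogenes.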

Additional observations from a re-analysis of the deposited data

Results flagged for a closer look

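In 62 groups of 5 libraries (30 members and CDKN1A, each in both media), 4 single libraries lay far from the others of their group. Chance alone flags about 1 in 20 groups. CCNG1 was at 125 CPM in stretch 6, against 174 to 185 CPM in the other stretch libraries. TNFRSF10B was at 560.2 CPM in stretch 10, against 324 to 369 CPM in the other stretch libraries. TP53I3 was at 91.5 CPM in static 7, against 45.5 to 58.4 CPM in the other static libraries. POLH was at 59.8 CPM in static 7, against 36.9 to 43.0 CPM in the other static libraries. Without static 7, TP53I3 had a log2 fold change of -0.41 and POLH one of 0.23.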

How the results depend on the processing

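No paired analysis was made, because the labels name no pairs and the groups share no title number. Whether libraries were handled in pairs is not known here. The members called by edgeR were 0 in each alternative except DESeq2, which called 2, TP53I3 and TIGAR; why was not tested. Over all genes, DESeq2 called 275, limma-voom 1 and edgeR at an adjusted p of 0.1 called 61 (16 higher), and leaving out 1 library gave 0 to 39, the most without stretch 4; the cause was not tested. Members below 0 numbered 18 to 23, and the median of all members was -0.19 to -0.10, with a library left out. Under other scalings the count of remaining members below 0 was 14 of 15. Of 536 values of single members under alternatives, 514 kept direction and side of the threshold, 2 passed it (both in DESeq2) and 20 changed sign. Those 20 belonged to 9 members near 0, each with a library left out: MDM2 -0.080 to 0.064, CCNG1 -0.042 to 0.155, PHLDA3 -0.10 to 0.0092, RRM2B -0.17 to 0.019, XPC -0.011 to 0.19, FDXR -0.029 to 0.12, SPATA18 -0.17 to 0.069, FBXO22 -0.32 to 0.071 and EI24 -0.22 to 0.039. Members lower at an unadjusted p under 0.05, counted under alternatives added after seeing the data, numbered 4 (without static 1) to 8 (without stretch 4 or static 7). Among the members, depth limits TP53I11, BBC3 and SPATA18 most, which had under 50 counts in every library. TNFRSF10A, at 37 to 107 counts a library, also failed the stricter filter of at least 50 counts in 5 libraries.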
